A study of Mus musculus with 6 samples.

Results

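The clustered protocadherins were examined as the peaks of 5 chromatin immunoprecipitation lists inside a 970 kb window of chromosome 18, from 37.05 to 38.02 Mb in the mouse build mm9. A peak belonged to the window when its midpoint lay inside, and no peak of any list crossed either edge. The window held 24 peaks of 76477 in the 5 lists. These were 8 H3K27ac peaks in the cell line ES48, 15 H3K27ac peaks in ES49, 1 H3K27me3 peak in ES49, and 0 EWS-FLI1 peaks in either line. The window was defined by position and not by any measured value, although earlier results of these data were known when it was chosen.

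ES48 and ES49 are mouse Ewing sarcoma cell lines on a Balb/c background, both induced by EWS-FLI1, the fusion of an RNA-binding protein with an Ets transcription factor. Both lines were untreated and grown in the same serum-supplemented medium. EWS-FLI1 was precipitated with a FLAG antibody, and H3K27ac, the acetylation found at active promoters and enhancers, with an antibody to that mark, in both lines. H3K27me3, the methylation laid down by a Polycomb repressive complex, has a list for ES49 only, so nothing is known here of that mark in ES48. Each group is 1 library with no replicate. Differences are therefore between libraries, no test of a difference between lines was possible, and no p-value is given. Intervals are exact 95% intervals and cover counting error only. Neighbouring peaks are not independent, which makes them too narrow.

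Clustered protocadherins are cell-surface adhesion proteins best known in the nervous system, where each neuron displays its own combination of them and so tells its own processes from those of other cells. In the Pcdha and Pcdhg clusters a row of variable exons, each with its own promoter, is followed by constant exons that every transcript of the cluster shares. Pcdhb genes have single exons and no constant part. Most of the promoters are chosen at random in a neuron, through contacts with distal enhancers that the factor CTCF and the cohesin ring bring about. The C-type genes, Pcdhac1, Pcdhac2 and Pcdhgc3 to Pcdhgc5, stand last before the constant exons and are used more uniformly.

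The RefSeq gene table, which is of build GRCm38, holds 58 genes of this family on chromosome 18. Of these, 57 code for protein and 1, Pcdhgb8, is a transcribed pseudogene. The 58 genes begin with 14 Pcdha genes, from Pcdha1 to Pcdhac2. Next come 22 Pcdhb genes, from Pcdhb1 to Pcdhb22, and then 22 Pcdhg genes, from Pcdhga1 to Pcdhgc5. Between Pcdhb22 and Pcdhga1 lie Slc25a2, a mitochondrial carrier gene, and Taf7, a gene for a subunit of the general transcription factor TFIID. Other protein-coding genes and pseudogenes, not named here, also lie among the 58. The first protein-coding genes on either side are Zmat2 before Pcdha1 and Diaph1 after Pcdhgc5. The table gives this order but no mm9 positions. Peaks are therefore described by position, and none is assigned to a gene.

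Most of the H3K27ac in the window lay at its distal end in both lines. The last 70 kb, 7.22% of the window, held 5 of the 8 ES48 peaks and 12 of the 15 ES49 peaks. These made up 83.4% of the length that H3K27ac covered in ES48 and 85.8% in ES49. The boundary of the last 70 kb was chosen after the data were seen, so a high share within it is partly built in. The single H3K27me3 peak lay far from the distal end, nearer to the start of the window. Of the 20 steps of 50 kb, 15 held no peak of any list.

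**Figure D1:**
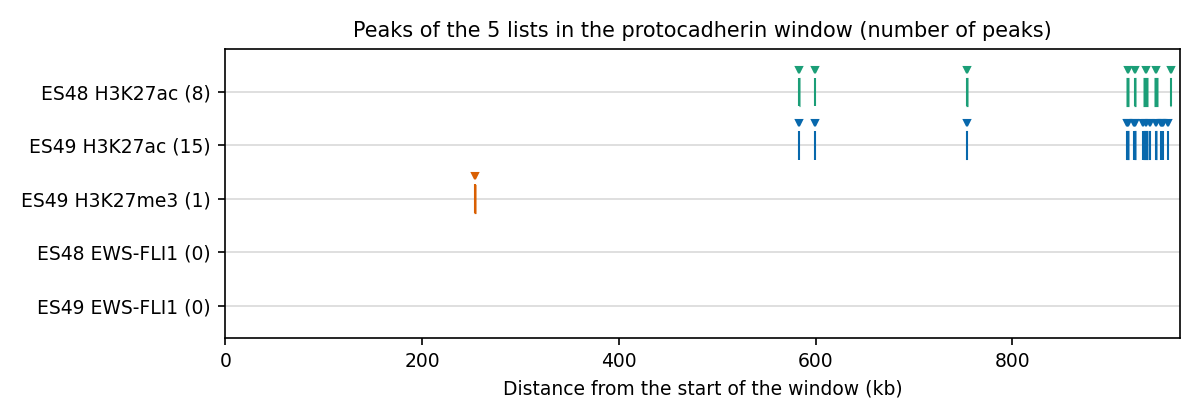
Positions of the peaks of each list along the window, in kb from its start, 1 row per list. Vertical lines are peaks, the narrowest drawn 1 line wide, and triangles mark their middles; both H3K27ac rows crowd at the distal end, and the EWS-FLI1 rows are empty.

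The 50 kb steps of the window, 20 in all with a last one of 20 kb, were set beside the 1794 other steps of the same grid on chromosome 18. ES48 H3K27ac had a peak in 4 of 20 steps, against 24.5% of the other steps. ES49 H3K27ac also had one in 4 of 20, against 22.2%. H3K27me3 had a peak in 1 of 20 steps, against 8.42%. Peaks of any list were present in 5 of 20 steps (25%, exact binomial interval 8.66 to 49.1), against 33.9%. With only 20 steps, none of these shares could be told from the share on the rest of the chromosome.

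The 4 acetylated steps were the same in ES48 and ES49, steps 12, 16, 19 and 20 from the start of the window. In step 20 no peak of either line overlapped a peak of the other, so only the step was shared there. No step was acetylated in 1 line alone, a state seen in 7.64% of the other steps, while 19.5% of them had H3K27ac of both lines. The first 11 steps, up to 37.6 Mb, had no H3K27ac peak in either line. The H3K27me3 peak lay in step 6, without H3K27ac of either line, and 5.96% of the other steps were of that kind.

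Step 12, from 37.6 to 37.65 Mb, held 2 ES48 peaks that covered 2.15% of it and 2 ES49 peaks that covered 2.05%. Step 16, from 37.8 to 37.85 Mb, held 1 peak per line, with 4.31% covered in ES48 and 2.53% in ES49. Cover of step 12 was reached by 20.8% of the other steps in ES48 and 16.8% in ES49, and that of step 16 by 14.6% and 14.5%.

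Step 19, from 37.95 to 38 Mb, was the fullest in both lines. It held 4 ES48 peaks that covered 29.5% of it, a cover that 8 of the 1794 other steps (0.446%) reached. It held 8 ES49 peaks that covered 24.0%, and 4 of the other steps (0.223%) reached that cover. By count, 63 of the other steps (3.51%) held at least 4 ES48 peaks and 6 (0.334%) at least 8 ES49 peaks. Step 19 was picked as the fullest of 20, so these percentages are less unusual than for a step named beforehand. The last step, from 38 to 38.02 Mb, held 1 ES48 peak covering 7.33% and 4 ES49 peaks covering 9.19%. Its length is 20 kb, so its rank among the 50 kb steps is not given.

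**Figure D2:**
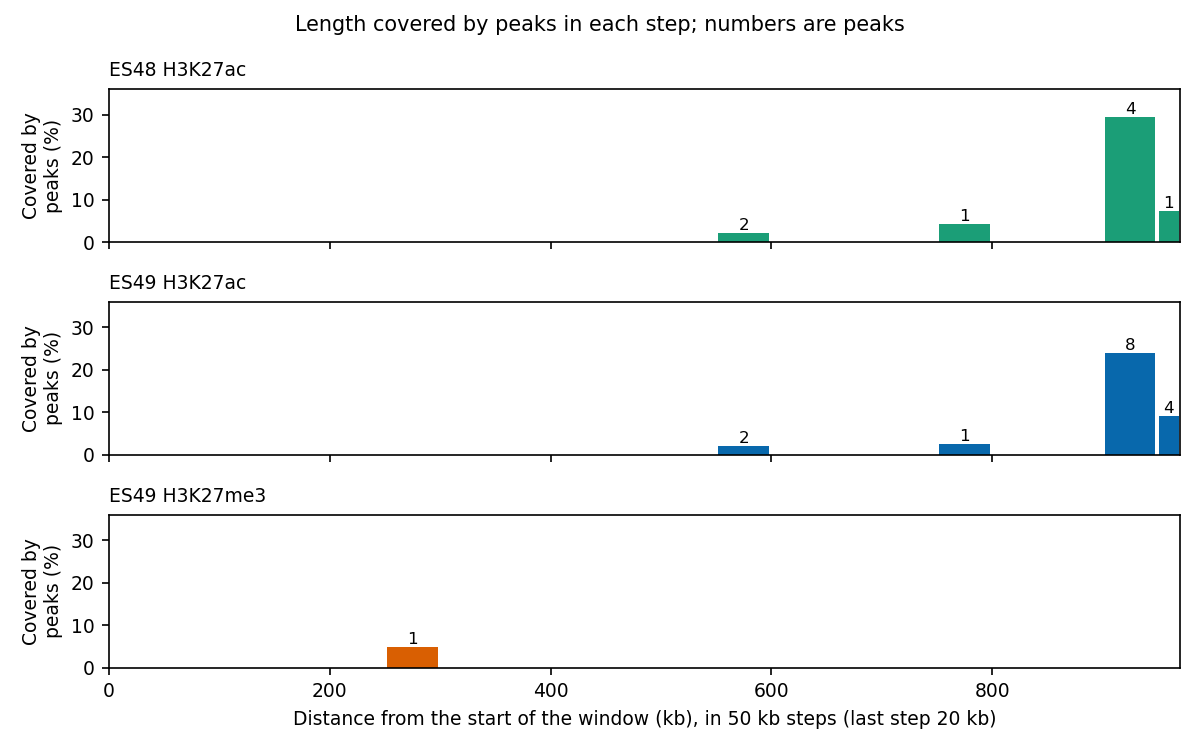
Percent of each step covered by peaks, in kb from the start of the window, for the 3 histone lists, with the number of peaks above each bar. In both lines the step that starts 900 kb into the window stands highest, at 29.5% in ES48 and 24.0% in ES49, and H3K27me3 covers 4.85% of 1 step.

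In ES48, 75.9% of all H3K27ac cover of the window fell into step 19, and in ES49 74.4% did. Among other windows of 970 kb on chromosome 18 with at least 5 H3K27ac peaks, the fullest step held a median of 31.0% of the cover in ES48 and 31.5% in ES49. A share as high as in the protocadherin window was reached by 7 of 1032 windows (0.678%) in ES48 and by 14 of 897 (1.56%) in ES49. These windows were moved by 50 kb at a time and overlap one another, and this measure was chosen after the positions of the peaks had been seen. The percentages are descriptions and not p-values.

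Joining H3K27ac peaks less than 12500 bp apart gave 4 runs in each line within the window, of which 3 were single peaks and 1 was the distal stretch. In ES48 the stretch ran from chr18:37965338-38011486, spanned 46.1 kb and had 5 peaks covering 16.2 kb. Its last peak began 12497 bp after the one before, just under the joining distance, and with peaks joined at under 10 kb the run had 4 peaks over 32.2 kb and again ranked number 9 by span. As joined here, it ranked number 11 of 491 runs on chromosome 18 by covered length and number 9 by span. In ES49 it ran from chr18:37965631-38007937, spanned 42.3 kb and had 12 peaks covering 13.8 kb. There it ranked number 5 of 454 by covered length and number 4 by span. The stretch was thus among the longer acetylated runs of the chromosome in both lists.

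The stretch had 4 places where peaks of both lines overlapped, spread over 32.2 kb with their middles 7.71, 10.4 and 10.6 kb apart. At the first, ES48 had 1 peak of 3418 bp from 37965338 to 37968755, with a score of 3100. The score is the peak caller's own, on a scale that is not stated, and can be compared only within a list. It levels off near 3100, which 19.6% of the ES48 H3K27ac list reached. ES49 had 2 peaks there, of 1620 bp from 37965631 to 37967250 with a score of 801.89 and of 340 bp with a score of 55.93.

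At the second place ES48 had a peak of 2008 bp from 37973755 to 37975762, with a score of 830.66. ES49 had 2, of 1387 bp from 37974316 to 37975702 with a score of 236.43 and of 380 bp with a score of 51.75, close to the lowest score of 50.01 in that list. This was the weakest of the 4 places in both lists.

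The third place was the widest in both lines. ES48 had a peak of 5847 bp from 37982360 to 37988206 with a score of 3100, the 23rd widest of 944 H3K27ac peaks on chromosome 18. ES49 had a peak of 4864 bp from 37982927 to 37987790, also with a score of 3100, which 6.01% of the ES49 list reached. It was the 4th widest of 844 on the chromosome, and a second ES49 peak of 458 bp lay beside it. At the fourth place ES48 had 3482 bp from 37994042 to 37997523 with a score of 3100, and ES49 had 2226 bp from 37994509 to 37996734 with a score of 1641.71.

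**Figure D3:**
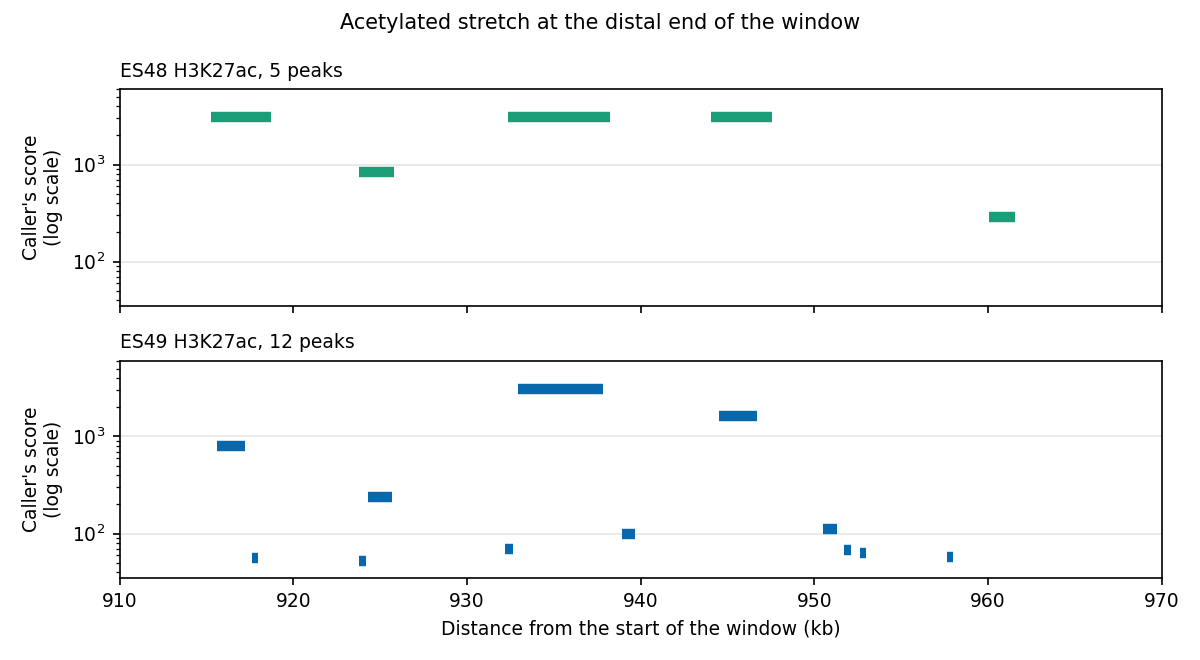
Peaks of the distal stretch, ES48 above and ES49 below, with the distance from the start of the window in kb across and the peak caller's score on a log scale upwards; each bar spans its peak's width. The 4 places with overlapping peaks stand at 917, 925, 935 and 946 kb, and the 5 ES49 peaks without an ES48 counterpart score between 57.44 and 112.2.

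Outside the stretch there were 3 acetylated places, each with 1 peak per line. The strongest was at chr18:37802591-37804743 in ES48, 2153 bp with a score of 1991.11, and at chr18:37802964-37804229 in ES49, 1266 bp with a score of 407.77. It stood apart, with 153.0 kb to the nearest ES48 H3K27ac peak and 153.3 kb to the nearest ES49 one. The 2 others were weak. They lay at chr18:37633195-37633806 (612 bp, score 96.35) and chr18:37649090-37649551 (462 bp, score 118.15) in ES48. In ES49 they lay at chr18:37633107-37633509 (403 bp, score 65.47) and chr18:37649058-37649679 (622 bp, score 85.62).

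H3K27ac peaks of the 2 lines, joined where they overlapped, made 13 places in the window, of which 7 had peaks of both lines, 1 of ES48 alone and 5 of ES49 alone. Of the 8 ES48 H3K27ac peaks, 7 overlapped an ES49 peak by at least 1 bp (87.5%, exact binomial interval 47.3 to 99.7), against 55.9% on the rest of chromosome 18. Of the 15 ES49 peaks, 10 overlapped an ES48 peak (66.7%, 38.4 to 88.2), against 76.0%. Both intervals include the share of the rest of the chromosome, so no difference from it was detectable with these counts.

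The exceptions were narrow or low-scoring and all lay in the distal stretch. The ES48 peak without a counterpart was chr18:38010021-38011486, 1466 bp with a score of 291.05, below the median score of 547.5 in that list. It lay 2.1 kb from the nearest ES49 peak. The 5 ES49 peaks without a counterpart were 323 to 770 bp wide, and all 5 scored below the median of 165.8 in the ES49 list. On the rest of chromosome 18, 86.4% of the ES48 peaks without a counterpart and 85.4% of those in ES49 scored below their list's median.

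The lists split the same places differently. In the window 3 of 8 ES48 peaks met 2 ES49 peaks each, whereas 0 of 15 ES49 peaks met more than 1 ES48 peak. On the rest of chromosome 18, 11.0% of ES48 peaks and 2.29% of ES49 peaks met more than 1 of the other line. ES48 peaks of the window had widths from 462 to 5847 bp with a median of 2080.5, and ES49 peaks from 323 to 4864 bp with a median of 622. The medians on the rest of the chromosome were 1399.5 and 811 bp. At 6 of the 7 places with peaks of both lines ES48 covered more base pairs, with a ratio of ES48 to ES49 from 0.743 to 1.74 and a median of 1.52. The exception was the place that starts at 37649058. On the rest of chromosome 18 ES48 covered more at 87.7% of 504 such places, with a median ratio of 1.42, so the wider calls of ES48 were common to the whole chromosome.

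Counted as peaks, H3K27ac in the window was at 8.25 per Mb in ES48 and 10.4 per Mb on the rest of chromosome 18, a ratio of 0.791 (exact interval 0.341 to 1.57). In ES49 it was at 15.5 per Mb against 9.23, a ratio of 1.67 (0.933 to 2.78). Both intervals include a ratio of 1. With the window widened by 50 kb on each side the ES49 ratio was 1.83 (1.08 to 2.9). With the window narrowed by as much it was 0.616 (0.199 to 1.44), so its direction depends on the edges. Against only those other steps that hold a peak it was 0.571 (0.318 to 0.948). That background leaves out empty steps while the window keeps its own, so a lower ratio is built in. Measured as covered length, H3K27ac took up 19.4 kb (2.0%) of the window in ES48 against 1.84% of the rest, and 16.1 kb (1.66%) in ES49 against 1.06%. The 2 lines shared 13.1 kb, 67.5% of the ES48 cover and 81.4% of the ES49 cover. On the rest of chromosome 18 these shares were 48% and 83.4%.

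All of these levels rest on the distal stretch. With the window ended at 37.95 Mb, an alternative chosen after the data were seen, 3 peaks were left in each line. The ratio of densities was then 0.318 (0.0655 to 0.933) in ES48 and 0.356 (0.0733 to 1.04) in ES49. The ratio of covered lengths was 0.193 and 0.237. The first 900 kb of the window thus had fewer H3K27ac peaks per Mb than the rest of the chromosome in both lists, although the ES49 interval includes 1. Such stretches were common: of 1760 other windows of 900 kb, 38.2% had 3 or fewer ES48 H3K27ac peaks and 45.7% had 3 or fewer in ES49.

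H3K27me3 was called at a single place, chr18:37302408-37304830 in ES49, 2423 bp wide with a score of 840.14. Of the 536 H3K27me3 peaks on the rest of chromosome 18, 33 (6.16%) had at least this score and 30 (5.60%) at least this width, so the peak was strong for its list. It was also isolated. The preceding H3K27me3 peak ended at 36890890, 411.5 kb away, and the next began at 38182532, 877.7 kb away, while the median distance to the nearest neighbour was 0.503 kb on the chromosome. It was number 12 of 537 by that distance.

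The density of H3K27me3 peaks in the window was 1.03 per Mb against 5.97 per Mb on the rest of the chromosome, a ratio of 0.173 (0.00436 to 0.966). At the rate of the rest 5.79 peaks would be found. The interval included 1 with the higher-scoring 50% of the list (ratio 0.372, 0.00937 to 2.09), with peaks less than 1 kb apart joined (0.300, 0.00756 to 1.68) and with either shorter window. H3K27me3 peaks lie in dense groups, so that most of the chromosome has few. Among the 1757 other windows of 970 kb, moved by 50 kb at a time, the median was 1 peak and 56.7% had 1 or none. By covered length, 0.25% of the window against 0.467% of the rest, 65.4% of the other windows had as little cover or less. The count of 1 peak was below the chromosome's average, with an interval that reached 1 under these settings. It was equal to the median count of stretches of this length. By cover, the window's 0.25% was above their median of 0.0411%.

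For H3K27ac the median of the other windows was 6 peaks in ES48 and 5 in ES49, below the 8 and 15 of the protocadherin window. A count at least as high was found in 44.9% of the other windows in ES48 and in 18.2% in ES49. At least as much cover was found in 29.7% and 17.4%.

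**Figure D4:**
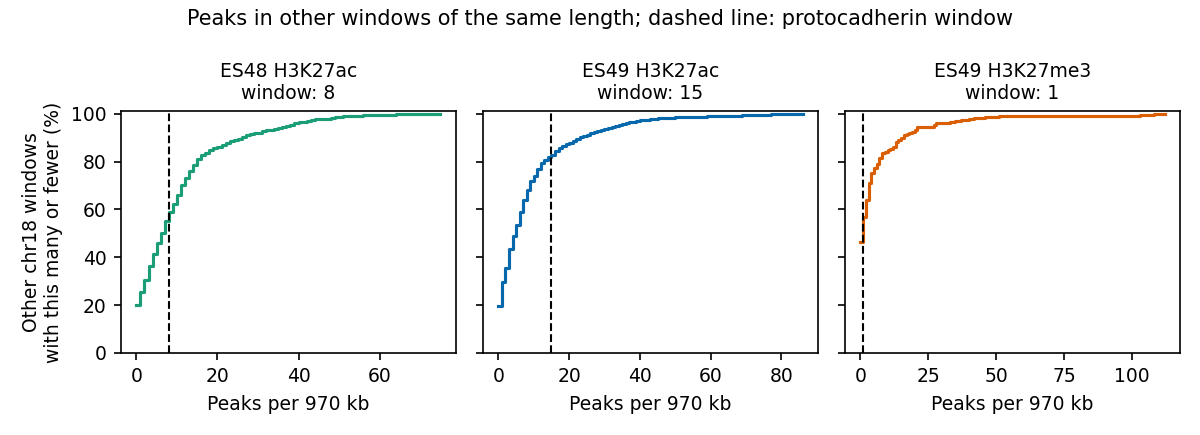
Cumulative percent of the 1757 other 970 kb windows of chromosome 18 by their number of peaks, for the 3 histone lists, with a dashed line at the protocadherin window. The line meets the curves at 59.0% for ES48 H3K27ac, 83.0% for ES49 H3K27ac and 56.7% for ES49 H3K27me3, each the percent of windows with as many peaks or fewer.

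The stretches next to the window held far more of both marks. The 970 kb before it had 107 H3K27me3 peaks (exact Poisson interval 87.7 to 129.0) covering 9.54%, and the 970 kb after it had 38 (26.9 to 52.2) covering 2.23%, against 1 (0.0253 to 5.57) in the window. H3K27ac had 29 peaks before, 8 within and 39 after the window in ES48, and 31, 15 and 40 in ES49. For H3K27me3 in ES49 and H3K27ac in ES48, the interval within the window did not meet that of either flank. For ES49 H3K27ac the interval within (8.40 to 24.7) met that of the flank before (21.1 to 44.0). It did not meet that of the flank after (28.6 to 54.5). The window was poorer in peaks than its flanks in every histone list. The flanks were themselves rich in peaks. Other windows of 970 kb on the chromosome had a median of 1 H3K27me3 peak, 6 ES48 and 5 ES49 H3K27ac peaks. The protocadherin window, with 1, 8 and 15, was not below these medians.

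Long stretches of the window had no peak of any of the 5 lists. The longest that lay wholly inside ran from chr18:37304831-37633106, 328.3 kb between the H3K27me3 peak and the first H3K27ac peak. Another of 340.9 kb, from 36961493 to 37302407, covered the start of the window and reached back beyond it. Stretches of 152.9 kb and 160.6 kb lay on either side of the acetylated place at 37802591. The gap of 328.3 kb was number 50 of 1672 by length on chromosome 18, where the median gap was 6.29 kb. It was thus among the longer gaps, though not the longest. A position without a peak is one where no enrichment passed the caller's threshold, and the depth of the libraries is unknown.

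The 2 histone marks did not meet in the window. None of the 8 ES48 and 15 ES49 H3K27ac peaks overlapped H3K27me3 of ES49, and counts of 0 among 8 and 15 allow shares of up to 37.5% and 20% by a floor of 3 counts (two-sided exact limits 36.9% and 21.8%). On the rest of chromosome 18 the shares were 1.60% and 1.45%, so no difference was detectable. The nearest H3K27ac peaks to the H3K27me3 peak were 328.4 kb away in ES48 and 328.3 kb in ES49, and the peak overlapped neither list. On the rest of the chromosome 2.99% of H3K27me3 peaks overlapped ES48 H3K27ac and 2.24% overlapped ES49 H3K27ac. The ES48 comparison is across lines.

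EWS-FLI1 had 0 peaks in the window in either line. A count of 0 allows up to 3 peaks, or 3.09 per Mb (two-sided exact Poisson limit 3.69 peaks), which is above the density on the rest of chromosome 18 of 0.301 per Mb (27 peaks) in ES48 and 0.134 per Mb (12 peaks) in ES49. At those rates 0.292 and 0.130 peaks would be found in a window of this length, so the lack of peaks is not a detectable difference. Of the other steps, 1.34% held an ES48 and 0.39% an ES49 EWS-FLI1 peak. The nearest ES48 peak lay at chr18:34973028-34973245, 2.08 Mb before the window, with a score of 57.41. The nearest ES49 peak lay at chr18:67235609-67235722, 29.22 Mb after it, with a score of 54.61. Both scores are near the lowest of their lists, 50.08.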

How the data were processed

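Peak lists from ChIP-seq of 5 samples were used, 1 library each. The sample of ES49 input DNA was left out, having no list among the files used. Per the submitters' processing notes, alignment was to mm9 by Bowtie 1.1.1, with SAMtools 1.2 also named. Peak names begin with MACS in the deposited files, and the caller's version, settings and control are not stated there or in the labels. The authors' deposited lists hold a position and a score for each peak and no read counts, so depth is unknown and scores were used only within a list.

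Peaks were placed by their midpoint. The rest of chromosome 18 is its length from the first base to the last peak end of any list (90.7 Mb) without the window, and the first peak starts at 3.12 Mb. Ratios of densities have exact conditional intervals, counts have exact Poisson and shares Clopper-Pearson intervals, all at 95%. An overlap is at least 1 bp in common. No test was run, because each group is 1 library. The computations were tested on simulated data.

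The window, the measures and the rule for named regions were chosen with earlier results of these data known. The rule names each H3K27me3 peak, up to 10 H3K27ac peaks per line by score, and runs of at least 3 peaks. Regions beyond it, such as single low-scoring peaks and gaps, and the genes Slc25a2 and Taf7, were named after the data were seen. Sequence tables were not used. Alternatives were other backgrounds, the higher-scoring 50% of each list, edges moved by 50 kb, joined peaks, other joining distances (chosen after the data were seen), other overlap rules and a shifted grid. The work was done in Python 3.11.15 with scipy 1.17.1, numpy 2.4.6, pandas 2.3.3 and, for figures, matplotlib 3.10.9.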

Additional observations from a re-analysis of the deposited data

Results flagged for a closer look

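The density of H3K27ac peaks in the protocadherin window lay below that of the rest of chromosome 18 in ES48, with a ratio of 0.791 (exact interval 0.341 to 1.57), and above it in ES49, with a ratio of 1.67 (0.933 to 2.78). It is listed here because the only library of each line moved the opposite way. The difference was not tested, and both intervals include 1. With peaks less than 1 kb apart joined, the ratios were 1.06 and 1.46, on the same side of 1. Joining left 8 ES48 peaks in the window and took those on the rest of the chromosome from 936 to 699. In ES49 it took the window from 15 to 10 and the rest from 829 to 635. By covered length they were 1.09 and 1.57.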

How the results depend on the processing

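Of 76 alternatives to 17 results, 61 stayed within the counting interval of the main value, or within 1.5 times for a number of steps or a span, and 15 moved beyond it. Of the 61, 18 are counts of 0 that stayed 0 (EWS-FLI1 peaks, and overlaps with H3K27me3), which say nothing about stability. All alternatives to the H3K27me3 density and covered-length ratios also stayed within, but these ratios rest on 1 peak. The main interval of the density ratio, 0.00436 to 0.966, is so wide that staying within it says little about stability. For ratios of covered length, the relative interval of the peak counts was used. The ES49 H3K27ac density ratio, whose main interval includes 1, excluded it upwards with the window widened (1.83, 1.08 to 2.9) and downwards against occupied steps (0.571, 0.318 to 0.948). Against only those chromosome 18 steps that hold a peak of any list, H3K27ac density ratios fell from 0.791 to 0.269 in ES48 and from 1.67 to 0.571 in ES49, and covered-length ratios from 1.09 to 0.372 and from 1.57 to 0.537. This background leaves out empty steps, while the window keeps its own, and is denser by construction. With the window narrowed by 50 kb on each side, which cuts off the distal end, the ES49 density ratio was 0.616 and the covered-length ratios were 0.412 in ES48 and 0.456 in ES49. With the window ended at 37.95 Mb the density ratios were 0.318 and 0.356 and the covered-length ratios 0.193 and 0.237. With only the higher-scoring 50% of each list, 5 of 5 H3K27ac peaks of the window overlapped the other line in each direction (100%), and H3K27ac was left in 2 steps in each line in place of 4. The H3K27me3 density ratio ranged from 0.0586 to 0.372, and its interval included 1 with the upper 50% by score (0.00937 to 2.09), with joined peaks (0.00756 to 1.68), with the narrowed window (0.00487 to 1.08) and with the window ended at 37.95 Mb (0.00471 to 1.04). No paired analysis was possible because each group has 1 sample. The depth of the libraries is unknown, which limits what a missing peak can show.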
